A study of Mus musculus with 29 samples.

Results

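Endoderm cultures that were grown out of mouse embryonic stem cells and passaged were compared with XEN cells, across all genes measured. The cultures, called nEnd in the labels, are of the double reporter line HRHnG, went through 7 to 8 days of differentiation (Activin, CHIRON, LIF) and were then passaged in nEnd medium. Mid arrays hold passage 7 to 10 and Late arrays passage 14 to 15. XEN cells are a line of their own, kept in standard XEN medium, and served as the controls. The members were chosen by label: 3 Mid, 3 Late and 3 XEN arrays, 9 of the 29 arrays of the series, with Mid and Late given equal weight as nEnd. Per the labels, each nEnd replicate came from its own set of differentiations and passages. What separates the 3 XEN arrays is not stated, so the spread between them may be technical. The limma p-values rest on a spread estimated for each gene from all 29 arrays of the 9 groups, not from these 9 arrays alone. Line, medium and origin all differ between nEnd and XEN and cannot be told apart here.

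Primitive endoderm is the extraembryonic lineage that forms beside the epiblast in the blastocyst, under the control of Gata6, Sox17 and Gata4. It gives rise to visceral endoderm, an epithelium that takes up and secretes nutrients, lipoproteins and serum proteins, and to parietal endoderm, single migratory cells that secrete a thick basement membrane. XEN cells are lines of the primitive endoderm lineage and in culture usually look parietal.

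Labels were checked first. All groups are labelled as male. Eif2s3y, a Y-linked translation factor, measured 3.32, 3.47 and 2.82 on the Mid arrays and 3.42, 3.25 and 3.30 on the Late arrays. On the XEN arrays it measured -6.33, -7.19 and -7.09, none of them well above background. Ddx3y, a Y-linked helicase, was likewise above background on all 6 nEnd arrays and on 0 XEN arrays, and Uty, a Y-linked demethylase gene, on 4 of 6 and on 0. Xist, the RNA of the inactive X chromosome, was not above background on any XEN array either, and was so at a low level on 5 of 6 nEnd arrays. Eif2s3y, Ddx3y and Uty therefore go against the male label of the XEN arrays. Other Y-linked genes were less clear. Sry was above background on 4 nEnd arrays and 1 XEN array and was not called, and Kdm5d was so on 0 on either side. Eif2s3y and Ddx3y were also above background on 0 arrays of EpiSC and ADE, other cultures labelled HRHNG. The cause was not tested. Hprt, a purine salvage enzyme that several widely used stem cell lines lack, gave values from -4.52 to -3.52 in nEnd and from 4.38 to 4.96 in XEN. Its level was also low in ESC, the undifferentiated HRHnG cells, at -3.40 to -2.57.

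These values, and all levels below, are log2 signals relative to the 75th percentile of the same array, and a difference of 1 is a doubling. On the 9 arrays, 52.5% to 67.9% of probes were well above background. Each gene was read by its brightest probe and called at an adjusted p under 0.05 in limma, with 16333 genes tested. Where a gene was well above background on every array of 1 side and on none of the other, the fold is a lower bound ("at least"), taken against the lowest signal that counted as above background on each array. Between XEN arrays the root mean square difference over these genes was 0.824 to 0.874. It was 0.576 to 0.97 between nEnd arrays and 1.439 to 1.661 between an nEnd and a XEN array, so the groups stood farther apart than replicates did.

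Of the 16333 genes, 6710 were called in nEnd minus XEN (41.1%), 2711 higher in nEnd (16.6%) and 3999 lower (24.5%). Counts from gene lists below stand against these shares. The lists and their members were chosen with earlier results of these data known, so an excess over the shares may be partly built in. Taken alone, Mid minus XEN called 6312 genes (38.6%) and Late minus XEN 5508 (33.7%). Both called the same 4161 genes in the same direction and 6 in opposite ones. The median difference over all genes was -0.03. The split depends on the scaling: 40.4% of calls were higher in nEnd here, 24% when arrays were centred on their median, and 59.5% with the percentile taken over probes above background on all arrays, which moved the median of all genes to -0.38 and 0.24. Large differences were mostly on the nEnd side. At least 8-fold differences numbered 525 higher in nEnd and 204 higher in XEN, and at least 64-fold 104 and 15. The 6 nEnd and 3 XEN arrays did not overlap for 5008 genes (30.7%), 2013 with nEnd above (12.3%) and 2995 with nEnd below (18.3%).

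**Figure D1:**
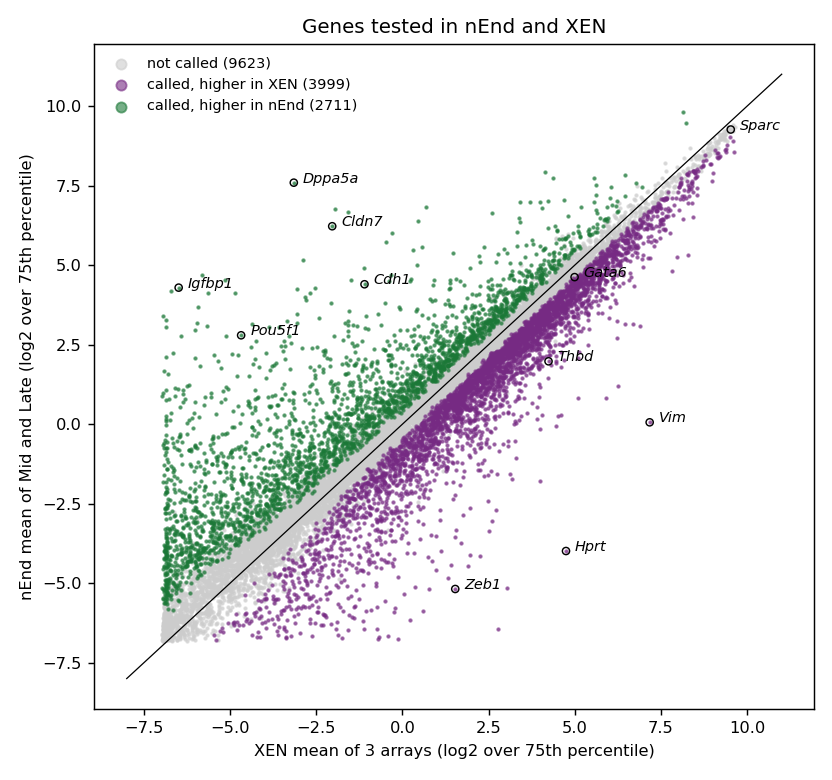
Mean level of each gene tested in XEN (x axis, 3 arrays) and in nEnd (y axis, mean of Mid and Late), both as log2 over the array's 75th percentile. Green points are the 2711 genes called higher in nEnd, purple points the 3999 called lower, and the line marks equal levels. The means include signals below background. Genes far from the line lie mostly on the nEnd side.

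The core regulators of primitive endoderm were high on both sides. Gata6, the GATA factor that starts the lineage, measured 4.64, 4.59 and 4.80 in Mid, 4.57, 4.69 and 4.43 in Late and 5.18, 4.39 and 5.40 in XEN. The groups overlapped, and the difference was -0.37 ± 0.52 (SE; adjusted p = 0.61). Sox17, a SOX factor of the same lineage, differed by -0.63 ± 0.38 (adjusted p = 0.21), with every nEnd array below every XEN array. It was called lower with the replicate block (adjusted p = 0.04), in a fit of the 9 arrays alone (0.023), with scan as a block (0.041) and with median centring (-0.98; 0.031). Foxa2, Hnf4a and the receptor Pdgfra differed by 0.08 ± 0.68, 0.61 ± 0.51 and 0.35 ± 0.52, none of them called here. Hnf4a was called higher with another background correction (0.68; adjusted p = 0.017) and in the authors' deposited value table (0.88; 0.0033). With standard errors of this size, equal levels are not shown. Gata4, a partner of Gata6 that maintains endoderm genes, was lower in nEnd: 4.09, 4.16 and 3.14 in Mid and 4.31, 4.29 and 4.24 in Late, against 6.00, 5.31 and 6.02 in XEN. Its groups did not overlap, and the difference was -1.74 ± 0.35 (adjusted p = 0.00034). Sox7, a SOX factor high in parietal endoderm, was lower by a wider margin at -2.82 ± 0.65 (adjusted p = 0.0012). Of 28 transcription factors listed for this lineage, all tested, 1 was called higher and 6 lower, with a median of -0.07 that ranged from -0.42 to 0.20 over the scalings tried. The 1 called higher was Klf4, a Kruppel-like factor, at 0.64 ± 0.25 (adjusted p = 0.04). Its call was lost with the shared Mid and Late replicate number as a random block (adjusted p = 0.052), with median centring (0.29; adjusted p = 0.56) and without XEN 2 (0.47; adjusted p = 0.19).

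Epithelial adhesion genes were higher in nEnd. Of 43 tested members of a list of epithelial junctions and keratins, 26 were called higher and 3 lower, with a median of 1.18. Cdh1, E-cadherin, which joins epithelial cells at adherens junctions, measured 4.77, 4.04 and 4.72 in Mid, 4.40, 4.27 and 4.18 in Late and -2.29, 0.13 and -1.15 in XEN. All nEnd arrays lay within 1 log2 unit of each other and far above XEN, and the difference was 5.50 ± 0.49 (adjusted p = 5.3e-09). Cldn7, a claudin of tight junctions, measured 6.08, 5.91 and 6.28 in Mid, 6.60, 5.96 and 6.49 in Late and -2.22, -1.66 and -2.23 in XEN. The nEnd arrays lay close together and far above XEN, and the difference was 8.26 ± 0.52 (adjusted p = 1.5e-11). Epcam, an epithelial adhesion molecule, was higher by 2.37 ± 0.26. St14, the membrane protease matriptase, was higher by 5.87 ± 0.39, and Spint1, its inhibitor, by 4.28 ± 0.31. Ap1m2, the adaptor subunit that sorts cargo to the basolateral membrane, was above background on every nEnd array and on no XEN array, and was at least 222-fold higher. The 3 members that were lower were Pkp2, a desmosomal plakophilin (-1.31 ± 0.29), Cldn12 (-0.55 ± 0.16) and Grhl2, an epithelial transcription factor (-1.82 ± 0.56). Cldn12 lost its call with quantile normalization (-0.29; adjusted p = 0.11), in the authors' deposited value table (-0.30; 0.096) and with the replicate block (0.053). Grhl2 lost its call with the mean of its probes (-0.56; adjusted p = 0.40), with another background correction (-0.77; 0.074), and without XEN 1 (-1.68; 0.054) or XEN 3 (-1.49; 0.08). Leaving out 1 array at a time gave 18 to 26 higher calls in the list, and centring on the median gave 18. Trophoblast, another epithelium, was checked by its markers. The summed linear signal of 15 such markers was 32.3 to 101 in nEnd and 12.9 to 26.6 in XEN, in units of the 75th percentile. Gcm1 alone made up most of the sum on every array, at 4.21 to 6.49 in nEnd and 3.03 to 4.44 in XEN on the log2 scale. Of the 15, 8 were above background on all nEnd arrays and 10 on all XEN arrays. Of 14 tested, 6 were called higher in nEnd and 2 lower, the higher ones including Krt7, which is on the epithelial list too, and Cdx2. The lower ones were Gata3, at -5.29 to -2.46 in nEnd and -1.14 to -0.19 in XEN, and Esx1, whose arrays overlapped. Hand1, a factor of giant cells, was above background on none of the 9 arrays, and Tpbpa, a spongiotrophoblast marker, on 1 nEnd array. Their part in the epithelial differences was not tested.

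Promoter letters of these genes are shown because repressors of the Zeb and Snail families, which bind the E-box CACCTG, are known regulators of epithelial genes, and Zeb transcripts also differed here. In the 250 bases before the gene start (RefSeq, build GRCm38.p6), CACCTG on either strand, which reads CAGGTG on the other, occurred in 19.8% of 12939 tested genes that have a window and in 17.2% of all 32851 windows. Of the 26 epithelial genes higher in nEnd, 17 have a window and 12 of these hold the letters, and over all tested members of the list it was 18 of 28. A gene with several windows counted once if any held the letters. Cldn7 has another window, at chr11:69964529-69964778, with 0 matches. The window of Vim, a mesenchymal gene, also held 0, and no window was available for Cdh1. Both windows below lie on the plus strand, Cldn7 at chr11:69965171-69965420 and Epcam at chr17:87635729-87635978, with the E-box letters in capitals.
Cldn7: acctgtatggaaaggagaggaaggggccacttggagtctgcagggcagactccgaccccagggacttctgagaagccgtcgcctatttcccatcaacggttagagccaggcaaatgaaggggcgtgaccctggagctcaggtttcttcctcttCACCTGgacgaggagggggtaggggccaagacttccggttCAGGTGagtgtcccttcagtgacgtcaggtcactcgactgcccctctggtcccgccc
Epcam: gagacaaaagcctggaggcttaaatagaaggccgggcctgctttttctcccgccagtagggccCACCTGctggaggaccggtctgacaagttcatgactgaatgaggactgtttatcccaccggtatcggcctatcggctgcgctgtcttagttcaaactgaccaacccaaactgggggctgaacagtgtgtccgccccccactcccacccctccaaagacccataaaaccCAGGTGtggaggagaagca
The Cldn7 window shown has the letters starting 97 and 57 bases before the gene start, and the Epcam window 187 and 19 bases before it. Such matches describe the sequence only, and binding was not measured.

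Mesenchymal genes lay on the XEN side. Vim, the intermediate filament of mesenchymal cells, measured -0.01, -1.98 and 1.62 in Mid, 0.61, -0.14 and 0.24 in Late and 7.91, 6.60 and 7.00 in XEN. The nEnd arrays were spread over several log2 units, yet none came near XEN, and the difference was -7.11 ± 0.51 (adjusted p = 1.5e-10). Zeb1, a zinc finger repressor of epithelial genes, measured 1.68, 1.13 and 1.78 in XEN and was above background on 3 of 6 nEnd arrays, with a difference of -6.72 ± 0.52 (adjusted p = 5.8e-10). Zeb2, its paralogue, was above background on every XEN array and on no nEnd array, and was at least 21.5-fold lower in nEnd. Snai1, the Snail repressor, was not called at -1.06 ± 0.44 (adjusted p = 0.057), but was with median centring (0.035), another background correction (0.022), and without Late 2 (0.04) or XEN 2 (0.012). Lgals1, the lectin galectin 1, differed by -3.29 ± 0.29. Some members went the other way. Cdh2, N-cadherin, was higher in nEnd by 2.10 ± 0.56 (adjusted p = 0.0039), with overlapping arrays, and so was Tgfbr2, the type II TGF-beta receptor, by 2.51 ± 0.40. In all, 30 mesenchymal genes were tested, 12 were called lower and 3 higher, and the median was -0.45. Of 15 fibroblast and mesenchyme markers, 2 were above background on all nEnd arrays and 5 on all XEN arrays. Their summed linear signal was 0.899 to 1.73 in nEnd and 1.92 to 2.51 in XEN, in units of the 75th percentile. Postn, a fibroblast marker, was above background on none of the 9 arrays. Dcn, a matrix proteoglycan, and Tcf21, a mesenchymal factor, were above it on all 3 XEN arrays and on no nEnd array. Col5a1, a collagen chain, went the other way, above background on all 6 nEnd arrays and on no XEN array. Of 13 tested markers, 4 were called lower in nEnd and 1, Col5a1, higher. Whether such cells take part in these differences was not tested. In bulk RNA, fewer cells of a type and less RNA per cell cannot be told apart.

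**Figure D2:**
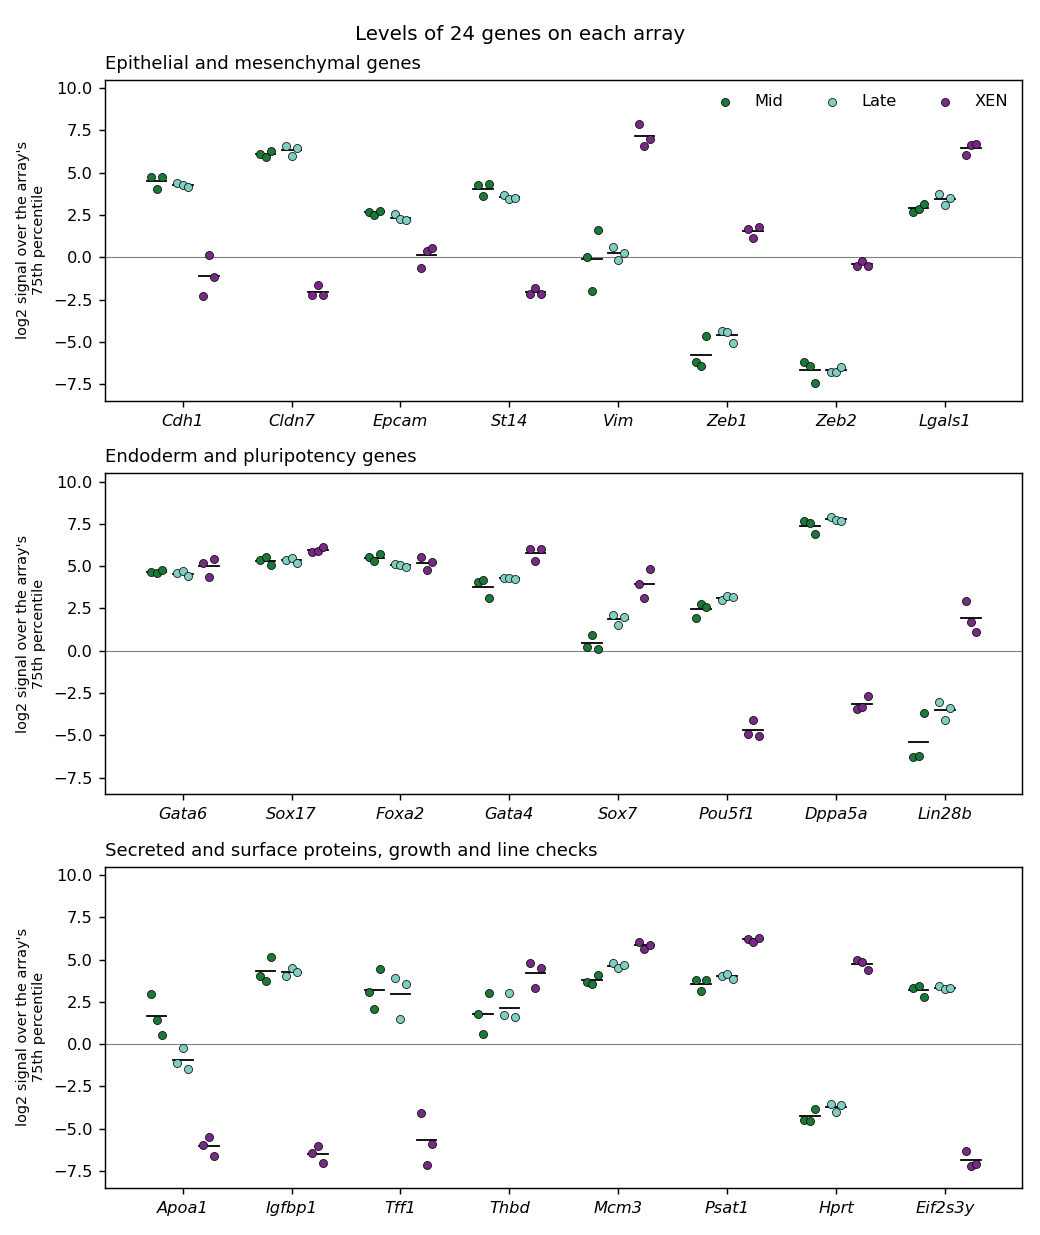
Level of 24 genes on each Mid, Late and XEN array, as log2 over the array's 75th percentile; each point is an array and each black bar the mean of 3. Gata6 points of nEnd and XEN overlap and Sox17 points of nEnd lie below those of XEN, while the epithelial genes lie higher in nEnd and Vim, Zeb1, Zeb2 and Lgals1 higher in XEN.

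Markers of parietal endoderm went mostly with XEN or were not called. Of 21 tested, 8 were lower in nEnd and 2 higher, with a median of -0.65; Vim and Zeb2, given above, are on this list too. Thbd, thrombomodulin, a classic parietal surface protein, measured 1.78, 0.61 and 3.04 in Mid, 1.72, 3.05 and 1.63 in Late and 4.83, 3.35 and 4.53 in XEN. Its groups did not overlap but came close, at -2.26 ± 0.67 (adjusted p = 0.0084; 0.054 without XEN 1). Stra6, a retinol receptor, differed by -3.78 ± 0.66 and Fst, an Activin antagonist, by -3.00 ± 0.57. The secreted matrix itself was high on both sides. Sparc, a matrix glycoprotein, reached 8.4 to 9.76 in nEnd and 9.1 to 9.75 in XEN (-0.26 ± 0.28; adjusted p = 0.50, or -0.88 and 0.02 with the mean of its probes). Lama1, Lamb1 and Col4a1, which build laminin and type IV collagen, were not called at -0.44 ± 0.31, -0.54 ± 0.37 and 0.57 ± 0.69, although Col4a1 was in the authors' deposited value table (1.1; adjusted p = 0.046). Other chains did differ. Lamb3, a laminin beta chain of stratified epithelia, was higher by 3.36 ± 0.90, while Lamc1, the chain common in early basement membranes, differed by -1.11 ± 0.25. Of 22 enzymes and partners of collagen modification, 7 were lower and 0 higher, against 24.5% and 16.6% of all genes, and 2 were higher with quantile normalization.

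Visceral endoderm markers were higher in nEnd in 17 of 30 tested members and lower in 0, with a median of 1.41 (13 higher and 1 lower with median centring). Amn, which with cubilin forms the receptor for cobalamin and protein uptake, measured 5.17, 5.72 and 4.94 in Mid, 6.01, 5.18 and 5.82 in Late and 0.76, 0.40 and -0.21 in XEN. The gap between the groups was several times their spread, 5.16 ± 0.35 (adjusted p = 4.9e-11). Calls of its partners depended on the setting. Cubn, cubilin itself, was not called here (1.16 ± 0.64; adjusted p = 0.16), but was with another background correction (1.25; 0.0028) and in a fit of the 9 arrays alone (0.041). Dab2, the endocytic adaptor, was not called here either (1.42 ± 0.83; adjusted p = 0.19), but was with the replicate block (0.0028), in a fit of the 9 arrays alone (0.0023), with the 15 arrays of the first set (0.00034) and in the authors' deposited value table (1.75; 1.1e-07). Lrp2, megalin, was higher by 1.40 ± 0.42 (adjusted p = 0.0089), or 1.13 without XEN 2 (0.064). Apolipoproteins showed wide gaps. Apoc1, from the list of lipoprotein and lipid transport genes, measured 2.99 to 4.85 in nEnd and -3.27 to -2.31 in XEN, a difference of 6.83 ± 0.35 (adjusted p = 4.4e-13). Apom and Apoc2 were higher by 4.41 ± 0.30 and 3.60 ± 0.35. Apoa1, the main protein of high density lipoprotein, measured 2.99, 1.43 and 0.55 in Mid and -1.14, -0.20 and -1.45 in Late, and was not above background in XEN, at least 36.5-fold higher in nEnd. Apoe was high throughout, from 6.84 to 7.92 in nEnd and 5.36 to 6.4 in XEN (1.42 ± 0.37; adjusted p = 0.0037, or 0.058 with median centring). Ttr, the thyroxine carrier transthyretin, was higher by 1.56 ± 0.57 with 1 XEN array inside the nEnd range. Its call was lost with median centring (1.21; adjusted p = 0.061), without Mid 1 (1.48; 0.053), without XEN 1 (1.44; 0.10) and without XEN 2 (1.20; 0.15). Afp, alpha-fetoprotein, varied from -2.62 to 2.02 in nEnd and was not called (0.67 ± 0.66; adjusted p = 0.45). Among 28 lipoprotein and lipid transport genes, 11 were higher and 3 lower. The lower ones were Pltp, the phospholipid transfer protein (-3.80 ± 0.37), Fabp5, a fatty acid carrier (-2.80 ± 0.43), and Lrp1, a lipoprotein receptor (-1.58 ± 0.34).

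Secreted proteins of gut mucosa and liver were higher as well. Of 23 tested gut and mucosal genes, 13 were called higher and 1 lower, with a median of 1.56. Tff1, a trefoil peptide of gastric mucus, measured 3.09, 2.08 and 4.47 in Mid, 3.91, 1.49 and 3.54 in Late and -4.04, -7.12 and -5.88 in XEN. The XEN arrays were spread out, 1 of 3 being above background, yet all lay far below nEnd (8.78 ± 0.65; adjusted p = 2.6e-10). Gkn2, a gastric secreted protein, was above background in nEnd only and at least 102-fold higher. Ghrl, which encodes the hormone ghrelin, was higher by 6.52 ± 0.43. Vil1, villin of microvilli, was higher by 5.94 ± 0.35. Of 28 liver type genes, 10 were higher and 1 lower. Fgb, a fibrinogen chain, was higher by 5.42 ± 0.78 and F2, prothrombin, by 3.04 ± 0.51. Outside the lists, Igfbp1, a binding protein for insulin-like growth factors, measured 4.01, 3.76 and 5.16 in Mid, 4.04, 4.50 and 4.28 in Late and -6.46, -6.00 and -7.02 in XEN. It was not above background in XEN, which puts nEnd at least 555-fold higher, and its mean was -6.38 in ESC and -5.28 in Diff, the cells after 7 to 8 days of differentiation. Markers of definitive endoderm and gut were less one-sided, with 7 of 29 higher, 1 lower and 21 not called. Cxcr4, a chemokine receptor often used to sort definitive endoderm, measured -3.15 to -1.81 in nEnd and was not above background in XEN, at least 5.07-fold higher. Cer1 was above background on none of the 9 arrays, and Eomes, a T-box factor, was not called (0.70 ± 0.31; adjusted p = 0.078, or 0.042 with the 15 arrays of the first set).

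Part of the pluripotency programme was present in nEnd and low in XEN. Dppa5a, an RNA-binding protein of naive stem cells, measured 7.70, 7.56 and 6.93 in Mid, 7.92, 7.73 and 7.70 in Late and -3.42, -3.35 and -2.69 in XEN. It had the highest difference among genes above background on all nEnd arrays and at least 1 XEN array, 10.74 ± 0.35 (adjusted p = 1e-16), and its mean in ESC was 8.44. Pou5f1, the pluripotency factor Oct4, measured 1.94, 2.79 and 2.59 in Mid, 3.00, 3.26 and 3.17 in Late and -4.91, -4.10 and -5.03 in XEN (7.47 ± 0.38; adjusted p = 3e-13). The nEnd values lay below its ESC mean of 5.88 and above every XEN array. Nanog and Sox2, which with Pou5f1 hold the pluripotent state, were near background: Nanog was above background on 2 of 6 nEnd arrays and Sox2 on 1 of 6, Mid 3, and neither on a XEN array. Zfp42, a zinc finger gene of stem cells, was higher by 2.85 ± 0.44 and Esrrb, a nuclear receptor of the naive state, by 3.26 ± 0.50. Of 33 naive pluripotency genes, 12 were higher, 3 lower and 18 not called. Among general pluripotency genes, 5 of 24 were higher and 8 lower. Lin28b, which blocks maturation of let-7 microRNAs, was among the 15 genes with the lowest differences at -6.37 ± 0.64, and Lin28a, its paralogue, differed by -1.75 ± 0.25. Of 28 germ line and cleavage stage genes, 9 were higher and 1 lower. The higher ones dropped to 2 of 28 with another background correction and to 2 of 23 in the authors' value table. The summed linear signal of 10 stem cell markers was 19.2 to 29.1 in nEnd and 5.97 to 7.19 in XEN. Of the 10, 7 were above background on all nEnd arrays and 6 on all XEN arrays. In nEnd, 4 were called higher and 1, Tdgf1, lower, and 5 were not called. Whether residual stem cells take part in these levels was not tested.

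Interferon and antigen presentation genes followed the nEnd side. Of 26 tested, 14 were higher and 4 lower, with a median of 1.03. Usp18, which damps interferon signalling, measured 1.67, 0.49 and -0.14 in Mid, -0.47, -1.44 and -0.64 in Late and -4.62, -4.15 and -4.32 in XEN. The groups were well apart, by 4.28 ± 0.43 (adjusted p = 4.1e-08). Bst2, tetherin, was higher by 2.58 ± 0.34, and Tap2, a peptide transporter of antigen presentation, at least 5.48-fold. Oas1a, an antiviral sensor, was at least 65.5-fold higher by its brightest probe, but another of its probes was above background in XEN. The 4 lower members were Ifitm2, an antiviral membrane protein (-3.35 ± 0.33), H2-K1, a class I heavy chain (-1.21 ± 0.29), Irf1, an interferon response factor (-1.18 ± 0.28), and H2-T23, a nonclassical class I chain (-0.65 ± 0.25; adjusted p = 0.038). Irf1 was not called with the mean of its probes (-0.37; adjusted p = 0.42). H2-T23 was not called under most alternatives, such as quantile normalization (-0.36; adjusted p = 0.27), the replicate block (0.14) and leaving out XEN 2 (-0.57; 0.12) or XEN 3 (-0.45; 0.23). Chemokines, cytokines and complement went both ways, with 6 of 22 higher and 8 lower. Il18, an epithelial cytokine, was higher by 7.63 ± 0.55. Spp1, osteopontin, was at least 61.6-fold higher, and Csf1, the macrophage growth factor, differed by -3.58 ± 0.52.

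Genes of cell division were lower in nEnd almost throughout. Of 42 tested genes of DNA replication and mitosis, 36 were called lower and 0 higher, with a median of -1.09. Under every scaling tried 0 were higher. The lower ones numbered 33 to 37 of the 42, and 24 of 31 in the authors' deposited value table. Mcm3, a subunit of the replicative helicase, measured 3.69, 3.58 and 4.10 in Mid, 4.81, 4.48 and 4.67 in Late and 6.07, 5.62 and 5.86 in XEN. Late arrays lay between Mid and XEN, and nEnd as a whole differed from XEN by -1.63 ± 0.18 (adjusted p = 1e-07). Birc5, survivin, which acts in mitosis, and Ccna2, cyclin A, differed by -1.60 ± 0.18 and -1.43 ± 0.15. Of 20 cyclins and growth drivers, 7 were lower (24.5% of all genes were) and 0 higher, among them Mycn (-1.81 ± 0.19) and Rb1, a restraint on the cell cycle (-1.79 ± 0.25). On the opposing side stood inhibitors and p53 targets, of which 10 of 30 were higher and 4 lower (7 to 16 higher over the scalings tried). Pmaip1, the cell death protein Noxa, measured 3.08, 2.38 and 3.00 in Mid and -0.51, -0.39 and -0.72 in Late, and was not above background in XEN, at least 62.5-fold higher in nEnd. Cdkn1c, an imprinted inhibitor of cyclin-dependent kinases, was higher by 5.22 ± 0.68. Trp53 itself, the gene of p53, differed by -2.15 ± 0.37.

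Metabolic genes of growing cells were lower too. Of 32 genes of amino acid supply and stress response, 17 were lower and 1 higher, with a median of -0.70. After quantile normalization 12 were lower (median -0.38), and in the authors' deposited value table it was 9 of 28 (median -0.34). Psat1, which makes serine from a glycolytic intermediate, measured 3.81, 3.12 and 3.80 in Mid, 4.02, 4.16 and 3.84 in Late and 6.22, 6.07 and 6.29 in XEN. Late arrays lay just above Mid arrays and both far below XEN, and nEnd minus XEN was -2.40 ± 0.23 (adjusted p = 1.6e-08). Phgdh, the first step of the same pathway, and Shmt2, which passes serine carbon to folate in mitochondria, differed by -1.48 ± 0.23 and -2.06 ± 0.22. In the respiratory chain 22 of 29 were lower and 1 higher, with a median of -0.64. That count depended on the scaling, with 10 lower and 3 higher after quantile normalization and 10 of 26 lower in the authors' deposited value table. Cycs, cytochrome c, differed by -1.97 ± 0.30 and Ndufa4 by -1.11 ± 0.17. Of 28 glycolysis genes, 11 were lower and 2 higher. Ldhb, a lactate dehydrogenase subunit, differed by -4.52 ± 0.50.

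Contractile genes and targets of YAP, the coactivator that responds to tension, were lower in 21 of 33 members and higher in 3, with a median of -1.13. Tagln2, an actin-binding protein, measured 5.76, 4.93 and 5.64 in Mid, 5.27, 5.17 and 5.10 in Late and 8.56, 8.31 and 8.01 in XEN (-2.98 ± 0.32; adjusted p = 1e-07). Tead2, a DNA-binding partner of YAP, differed by -2.86 ± 0.22, and Ajuba, a LIM protein of cell junctions, by -2.00 ± 0.23. Cald1, caldesmon, differed by -2.68 ± 0.32. Acta1 and Acta2, muscle type actins, went the other way at 2.27 and 1.82, but neither was called without XEN 3 (1.46 and 1.33; adjusted p = 0.17 and 0.14).

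**Figure D3:**
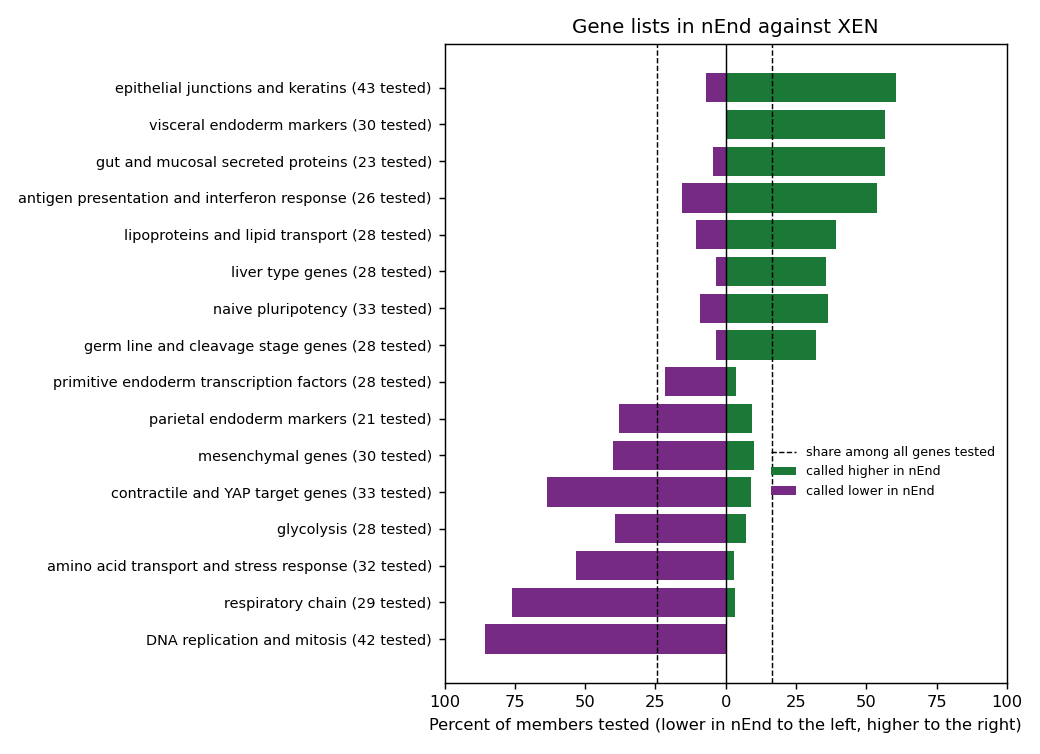
Share of tested members of 16 gene lists called higher in nEnd (green, to the right) or lower (purple, to the left), in percent. Dashed lines mark the shares among all genes, 16.6% higher and 24.5% lower. The epithelial, visceral endoderm and mucosal lists reach far beyond the line on the right. DNA replication, respiratory chain and contractile genes reach beyond that on the left. The lists were chosen with earlier results of these data known.

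Signalling lists had members called both ways, where 16.6% of all genes were called higher and 24.5% lower. The FGF, BMP, Nodal and Wnt counts were near or under those shares. In FGF and ERK signalling 5 of 32 were higher and 6 lower. Fgf10, a ligand, was higher by 2.81 ± 0.62, and Fgfr1, a receptor, differed by -2.81 ± 0.45. In LIF and STAT3 signalling 8 of 24 were higher and 5 lower. Osmr, the oncostatin M receptor, was higher by 4.02 ± 0.39, while Lifr, the LIF receptor, differed by -1.33 ± 0.34. In BMP signalling 5 of 27 were higher and 6 lower. Bmp2, a ligand, was higher by 1.35 ± 0.47, Id1, a direct target, by 2.44 ± 0.52 and Id3 by 1.29 ± 0.37. Bmp2 lost its call with median centring (1.00; adjusted p = 0.066) and without XEN 2 (1.07; 0.12), and Id3 with the replicate block (0.084) and without XEN 3 (0.57; 0.18). In Nodal and Activin signalling 2 of 27 were higher and 5 lower, the lower ones including the antagonists Fst, given above, and Fstl3 (-2.35 ± 0.49). In Wnt signalling 4 of 32 were higher and 6 lower. Wnt4, a ligand, differed by -2.16 ± 0.43. Retinoid genes had 8 of 21 higher and 3 lower, among them Cyp26b1, which degrades retinoic acid (3.18 ± 0.50), and Rarb, a retinoic acid receptor (-2.87 ± 0.43).

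Some genes were measured on 1 side only. Above background on all 6 nEnd arrays and on no XEN array were 217 genes, and the reverse held for 61. Without XEN 2, on which 64.1% of probes were above background, the most of the 3 XEN arrays, the first count was 366. Of the 217, 107 were at least 10-fold higher in nEnd, and of the 61, 14 were at least 10-fold lower. Many of the nEnd genes were also present in the stem cells of the same line: 120 of the 217 were above background on all 3 ESC arrays and 46 on none. For the XEN genes it was 16 and 32 of 61. Rsrp1, an arginine and serine rich protein, led with a bound of 737-fold and had 4.21 to 4.98 in nEnd, 5.14 to 5.88 in ESC and -6.37 to -5.12 in XEN. Hexa, a lysosomal hexosaminidase subunit, had a bound of 363-fold, with 4.70 to 5.06 in ESC. Pigp, a subunit of the enzyme that starts GPI anchor synthesis, was above background everywhere but stood at 6.39 to 7.04 in nEnd, 8.50 to 8.80 in ESC and -2.36 to -1.32 in XEN. EpiSC and ADE, other cultures whose label gives the line as HRHNG, had Pigp at -1.16 to 0.53 and -2.23 to -1.81. On every ESC array Rsrp1, Hexa and Pigp were thus higher than on any nEnd array. Other genes were lower in ESC. Galnt6, a mucin glycosyltransferase (at least 513-fold), had an ESC mean of 1.40, and Arhgef16 (at least 256-fold) and Kcnk6, a potassium channel (at least 235-fold), had means of -1.23 and -0.90. Among genes of the XEN side, Hebp2 and Baalc had bounds of 22.1-fold and 17.7-fold.

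Passage changed the difference from XEN for a limited set. Late minus Mid, which equals the difference between the 2 differences from XEN, called 1118 genes (6.85%), 617 higher in Late (3.78%) and 501 lower (3.07%). The direction of this split depended on the processing. Of the calls, 55.2% were higher in Late here and 58.7% with the replicate number as a random block. It was 23.4% with median centring, 38.8% with quantile normalization and 27.3% with the number as a fixed block. The median difference over all genes was 0.119 here and -0.039 with median centring. Same-numbered Mid and Late arrays deviated together, so counts with the number as a block stand beside those from the fit without it. With the number as a fixed block, fitted on the 9 arrays only, the count was 139, against 282 on those arrays without a block. As a random block in the fit of all 29 arrays it was 2113. It was 384 with median centring, and 493, 659, 438 and 409 without Mid 1, Mid 2, Late 1 and Late 3. In the fit of all 29 arrays without a block, 714 genes were called in both comparisons. Of these, 423 moved towards the XEN level and 291 away from it, under that 1 scaling. Lxn, a carboxypeptidase inhibitor, measured 6.15, 5.11 and 5.45 in Mid and 2.99, 2.27 and 2.77 in Late, all far above XEN at -5.89 to -5.15. It fell by 2.89 ± 0.44 from Mid to Late (adjusted p = 0.00042; 0.0086 with the block). Pmaip1 fell by 3.36 ± 0.38 (adjusted p = 1.7e-05; 0.0086 with the block), and Tgfbr2 fell by 2.26 ± 0.46 (0.0044; 0.022 with the block). Nod1, a sensor of bacterial peptides, measured -3.27, -2.72 and -1.84 in Mid, 0.49, 0.91 and 0.50 in Late and -3.85 to -2.73 in XEN, so that Late stood apart from both (3.24 ± 0.44; adjusted p = 0.00017; 0.019 with the block). Of the replication and mitosis genes 8 were higher in Late and 0 lower. With the fixed block 0 were called, as on the 9 arrays alone without a block and with median centring. With the random block 13 were higher and 0 lower.

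**Figure D4:**
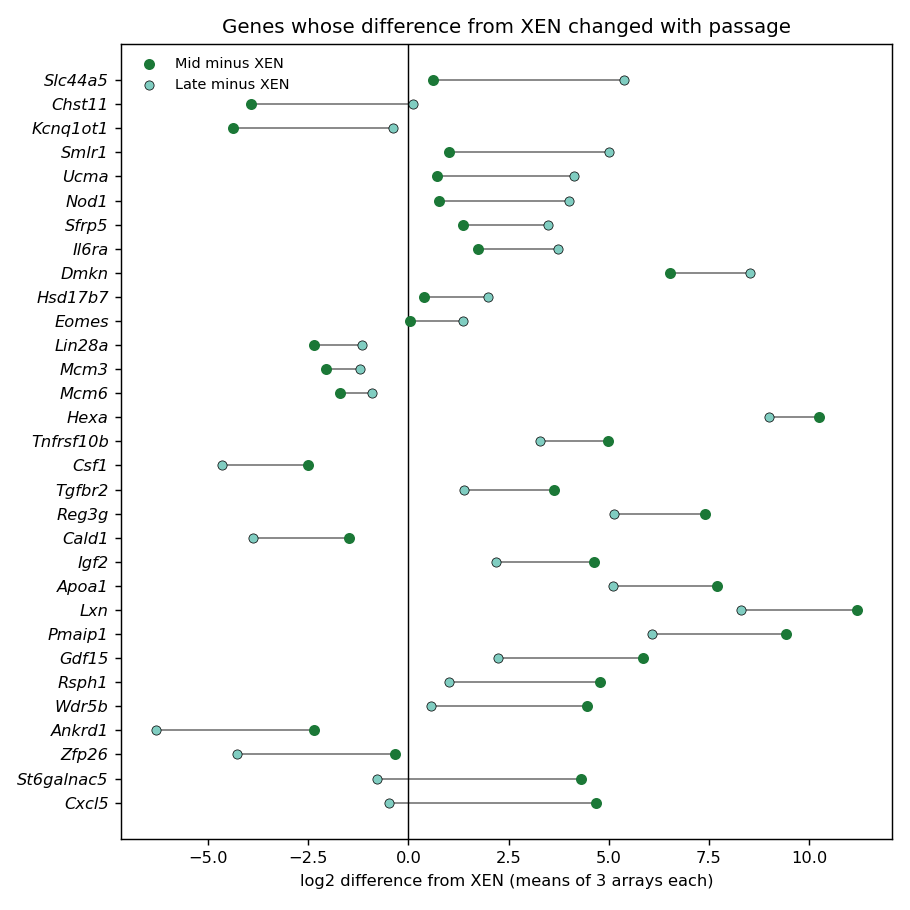
Difference from XEN in Mid (dark green) and in Late (teal) for 31 genes named here whose Late minus Mid difference was called, on the log2 scale; each point is the difference between the means of 3 arrays. Both sets of points share the XEN arrays; Cxcl5, St6galnac5, Wdr5b and Rsph1 lie at 4.31 to 4.77 in Mid and between -0.77 and 1.01 in Late, and Slc44a5, Smlr1 and Ucma lie below 1.1 in Mid and above 4 in Late.

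Probes that the files place on the genome (build mm9) but give no gene name were compared by chromosome. Each array's median deviation on a chromosome was taken relative to its median over all such probes. Chromosome 14 had the largest difference between the groups: its 324 probes measured -0.107, -0.07 and -0.15 in Mid, -0.082, -0.097 and -0.166 in Late and 0.261, 0.126 and 0.29 in XEN. No arrays overlapped, and nEnd minus XEN was -0.338 (exact two-sided permutation test over 6 and 3 arrays, p = 0.0119, the smallest it allows; adjusted p = 0.034 over 20 chromosomes). That test counts same-numbered Mid and Late arrays separately. With each such pair averaged, 3 against 3, the exact p was 0.1, the smallest that design allows, and the adjusted p 0.2. With 218 probes above background on all 9 arrays it was -0.274 (adjusted p = 0.0595). On 6 other chromosomes the adjusted p over 6 and 3 arrays was also 0.034, with differences from -0.119 to 0.149, and with pairs averaged it was 0.2 for these too. Along chromosome 14, split into 4 groups of 81 probes by position, the difference was -0.212, -0.403, -0.563 and -0.248. The 324 probes were above background on all arrays of Mid, Late or XEN; tested in limma, where any of the 9 groups could pass that filter, were 379. Of these 379 probes, 78 were called lower in nEnd (20.6%), against 419 of 8061 on the other chromosomes (5.2%). On the ESC and Diff arrays the chromosome 14 medians were -0.072 and -0.03, measured the same way.

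**Figure D5:**
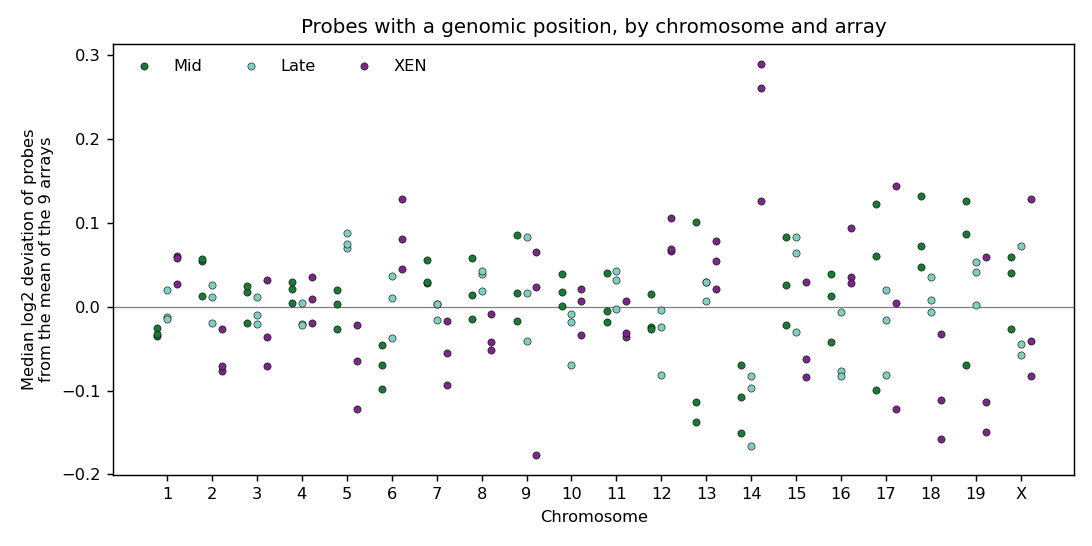
Median log2 deviation of unnamed probes with a genomic position, by chromosome (x axis) and array (points; 3 Mid, 3 Late and 3 XEN arrays), relative to the mean of the 9 arrays and to each array's median over all such probes. On chromosome 14 the XEN arrays lie at 0.126 to 0.29 and every nEnd array below 0, the widest separation in the plot.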

How the data were processed

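RNA was measured on 29 one-colour Agilent arrays in 9 groups. The deposited files hold spot intensity after background subtraction, per the file headers (build mm9); the submitters' processing notes name Agilent Feature Extraction 9.1, the headers 11.0.1.1 for these 9 arrays. Here the log2 of the deposited processed signal was taken minus each array's 75th percentile over non-control probes, after irregular spots were dropped and spots of a probe averaged. A gene took its brightest probe and was tested where every array of some group was well above background. limma 3.58.1 (R 4.3.3) fitted the 9 groups, with Benjamini-Hochberg adjustment; Mid and Late weigh equally in nEnd. In simulated data with known changes, it recovered 25, 41, 48 and 49 of 50 genes changed by 1, 2, 3 and 4 on the log2 scale, with 8 false calls. The simulated noise was normal, independent between arrays and as wide as the spread of the same fit. It held no shared replicate, slide or scan effects and no background floor. The recovery therefore describes the model under its own assumptions and does not test the calls in the real data. The number of arrays limits the precision.

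Same-numbered Mid and Late arrays deviated together (correlations 0.218, 0.129 and 0.141), and per the series' design text each nEnd replicate is a separate set of differentiations and passages. Arrays numbered 1 shared a slide, and so did those numbered 2, XEN included, so culture and slide cannot be told apart there. Between nEnd and XEN arrays of any number, the correlations ran from -0.22 to 0.222. XEN numbers are not stated to pair with Mid or Late numbers. The fixed replicate block still placed XEN arrays by number, and was fitted on the 9 arrays alone. Its calls in nEnd minus XEN therefore rest partly on a pairing that the labels do not give. The random block joined Mid and Late arrays only, in the fit of all 29 arrays. The deposited value table, with column medians from 5.94 to 5.95 and a scale and centring that are not stated, was taken as log2 and served as an alternative.

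Named genes were the largest differences and bounds, the smallest p-values of each list, a set given whatever its result, and the largest passage differences. Postn, a cell type marker, and Sry and Kdm5d, Y-linked genes, are given outside that rule. Members and lists were chosen with earlier results of these data known. Promoter windows come from RefSeq (GRCm38.p6), 250 bases before each start. Probes with several symbols were not named. A few genes are not reported here.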

Additional observations from a re-analysis of the deposited data

Results flagged for a closer look

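For 31 named genes the difference from XEN depended on passage: Late minus Mid, which is the difference between the Late and the Mid difference from XEN, passed the adjusted limma test. Mid and Late were compared with the same XEN arrays. With the replicate number as a fixed block 13 of the 31 were called, with it as a random block 31, and with a fit on the 9 arrays alone 17.

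Genes lower in Late included Cxcl5, a chemokine (-5.17), St6galnac5, a sialyltransferase (-5.08), Zfp26 (-3.95), Ankrd1, a YAP target (-3.93), Wdr5b (-3.89), Rsph1, a ciliary protein (-3.76), Gdf15, a stress cytokine (-3.63), and Pmaip1 (-3.36). Smaller differences in this direction were Lxn (-2.89), Apoa1 (-2.59), Igf2, a growth factor (-2.46), Cald1 (-2.40), Tgfbr2 (-2.26), Reg3g, an antimicrobial lectin (-2.26), Csf1 (-2.14), Tnfrsf10b, a death receptor (-1.69), and Hexa (-1.25). Cxcl5, Zfp26, Rsph1 and Wdr5b were above background on all Mid arrays and no Late array, with bounds of at least 9.74-fold, 12.8-fold, 6.29-fold and 5.5-fold.

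Genes higher in Late were Slc44a5, a choline transporter family member (4.76), Chst11, a chondroitin sulfotransferase (4.03), Kcnq1ot1, an imprinted antisense RNA (3.98), Smlr1 (3.97), Ucma (3.43), Nod1 (3.24), Sfrp5, a Wnt antagonist (2.12), Dmkn (1.98), Il6ra, the interleukin 6 receptor (1.98), Hsd17b7, a sterol synthesis enzyme (1.60), Eomes (1.31), Lin28a (1.20), Mcm3 (0.87) and Mcm6, another helicase subunit (0.78). Chst11 and Ucma were above background on all Late arrays and no Mid array, with bounds of at least 6.09-fold and 4.06-fold. Slc44a5, Smlr1 and Kcnq1ot1 were above background on 1 of 3 Mid arrays and St6galnac5 on 1 of 3 Late arrays. For these genes and those given bounds, values below background have no order, so the differences rest partly on them. The 13 called with the fixed block were Chst11, Cxcl5, Kcnq1ot1, Lxn, Nod1, Pmaip1, Rsph1, Slc44a5, St6galnac5, Tgfbr2, Ucma, Wdr5b and Zfp26, with adjusted p-values from limma between 0.0059 and 0.031.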

How the results depend on the processing

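The count of genes called in nEnd minus XEN stayed within 1.5 times of 6710 under every alternative except a null of a difference under 2-fold, which left 1436, and gave 1377 for Mid and 1248 for Late minus XEN. Leaving out 1 array gave 5654 to 6651, 5317 to 6240 for Mid and 4524 to 5651 for Late minus XEN. The replicate block left 5475 calls in nEnd minus XEN, against 5665 on the same 9 arrays without it. The random replicate block, in the fit of all arrays, left 6381. Under the random block 4 of 349 named genes lost their calls, Kcnq1ot1, Kdr and Klf4 among them. Late minus Mid was less stable than 1118: median centring gave 384, the 15 arrays of the first set 719, the 9 arrays alone 282, the replicate block 139, the random replicate block 2113, scan as a block 703 and the 2-fold null 18. Leaving out 1 array gave 409 to 1301, with 493 without Mid 1, 659 without Mid 2, 438 without Late 1 and 409 without Late 3. Genes measured in nEnd only numbered 217, and 219 to 366 when 1 array was left out, the highest without XEN 2. Those measured in XEN only numbered 61, and 63 to 91, the highest without Mid 3. Of 349 named genes, Rab5a, an endosomal GTPase, turned sign, to -0.01 with median centring (adjusted p = 0.98). Named genes that lost their call numbered 32 with the first scan only, 27 with another background correction, 27 with slide as a block and 137 with the 2-fold null; the causes were not tested. The normexp correction used median signals and, like the percentile over spots, was chosen after seeing the data, as was averaging Mid and Late pairs by chromosome, where no p under 0.1 is possible and the 7 chromosomes called lost their calls. Probes near background limit folds to bounds, and 3 arrays a group limit precision.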

Other observations

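Imprinted genes went both ways, with 10 of 34 tested higher in nEnd and 10 lower, against 16.6% and 24.5% of all genes. Igf2, a paternally expressed growth factor, measured 1.23, 1.22 and -1.54 in Mid, -2.23, -2.53 and -1.68 in Late and -4.39, -3.52 and -5.09 in XEN. All nEnd arrays lay above XEN, Mid 1 and Mid 2 by the most, and the difference was 3.41 ± 0.55 (adjusted p = 2.7e-05). Gab1, a signalling adaptor, was higher by 2.92 ± 0.27. Mest, a paternally expressed hydrolase gene, and Peg12 differed by -3.55 ± 0.68 and -3.29 ± 0.51, with every nEnd array below every XEN array. Among enzymes and partners of DNA methylation, 10 of 23 were lower and 1 higher, with a median of -0.46, and 4 to 11 were lower over the scalings tried. Uhrf1, which brings the maintenance methyltransferase to replicated DNA, differed by -1.64 ± 0.24, Tet1, a methylcytosine oxidase, by -1.97 ± 0.34 and Zfp57, which protects imprints, by -1.78 ± 0.31.

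Among aquaporins and solute channels, 9 of 18 were higher in nEnd and 1 lower, or 5 and 2 with median centring. Aqp11, an intracellular aquaporin, measured 2.26 to 3.30 in nEnd and 0.15 to 0.60 in XEN (2.48 ± 0.26; adjusted p = 4.8e-08). Slc34a2, a phosphate transporter, was higher by 3.12 ± 0.45. Of 33 detoxification and redox enzymes, 8 were higher and 8 lower, against 16.6% and 24.5% of all genes. Gpx2, an epithelial glutathione peroxidase, measured 6.27 to 6.93 in nEnd and -2.23 to -1.09 in XEN, a difference of 8.24 ± 0.57 (adjusted p = 6.4e-11). Outside the lists, Cthrc1, a secreted collagen triple helix protein, measured -6.77 to -3.08 in nEnd and -0.14 to 1.16 in XEN, with a difference of -6.47 ± 0.63 (adjusted p = 2.2e-08).

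Of 8440 tested probes that carry mm9 coordinates and no gene symbol, 590 were called higher in nEnd and 497 lower, 12.9% in all. A pair of probes lay on chromosome 11 at 97457180 to 97487074. The first measured -0.58 to 0.24 in nEnd and was above background on 0 XEN arrays. Its difference of 6.81 ± 0.27 thus rests partly on values below background, and no bound was computed for it. The second, above background on 2 XEN arrays, was higher by 6.35 ± 0.26. On chromosome 16 at 92478986 to 92497610 a probe measured 0.97, 1.55 and 0.76 in XEN and -5.21 to -3.96 in nEnd. It was above background on 1 Mid and 1 Late array, and the difference was -5.58 ± 0.37. Genes at these positions were not named here.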
